A study of Homo sapiens with 5 samples.

Results

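The stretch of chromosome 3 that carries CLDND1, GPR15 and CPOX was examined in the colorectal cancer cell line HCT116 by chromatin immunoprecipitation followed by sequencing (ChIP-seq). Its members are the summits, 1 position per called peak, that fall between 98150000 and 98400000 on chromosome 3 (hg19) in any of 5 deposited lists. There were 82 such summits among the 209263 of all lists. Of these, 33 came from H3K27ac after ENO1-IT1 siRNA and 41 from H3K27ac after control siRNA. KAT7 gave 3 after ENO1-IT1 siRNA and 5 after control siRNA, and input DNA gave 0. H3K27ac is histone H3 acetylated at lysine 27, KAT7 (also named HBO1) is a histone acetyltransferase of the MYST family, and input is sheared DNA taken without an antibody. Cells had received the siRNA for 48 h, and ENO1-IT1 is a long noncoding RNA named for an intron of the enolase gene ENO1. Each group held 1 library, so nothing here carries a test against replicate error, and every difference describes these libraries. The siRNA given to the cells behind the input library is not in its label, and the lists hold no transcript levels with which to check the knockdown or the cell line.

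The region was chosen by its many H3K27ac summits in these lists, so the number of H3K27ac summits describes that choice and is no finding. The genes were placed by approximate hg19 positions that came with the choice and are given to the nearest kb: CLDND1 from 98.234 to 98.242 Mb, GPR15 at 98.251 Mb and CPOX from 98.298 to 98.312 Mb. No hg19 annotation was used, and no summit was placed in an exon, intron or UTR. CLDND1 encodes a claudin-domain membrane protein related to the tight-junction claudins. GPR15 encodes a chemoattractant receptor coupled to G proteins, known for guiding T cells to the colon and as a coreceptor for some immunodeficiency viruses. CPOX encodes coproporphyrinogen oxidase, a mitochondrial enzyme of heme synthesis whose loss of function causes hereditary coproporphyria. H3K27ac marks active promoters and enhancers, and long runs of closely spaced acetylated sites are often described as clustered enhancers. In RefSeq for GRCh38.p14, ordered by lowest coordinate, the antisense RNA CLDND1-AS1 and the pseudogene RPL38P4 lie between CLDND1 and GPR15, GPR15 is directly followed by CPOX, the olfactory receptor gene OR5K2 precedes CLDND1, and the pseudogene RPL19P7 follows CPOX.

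H3K27ac summits lay near the approximate starts of GPR15 and CPOX, weak at the one and strong at the other, and their promoters are shown because they are unlike in sequence. RefSeq promoter windows, 250 bases before to 50 after the start, matched 2 of the 3 genes. The coordinates are those of GRCh38.p14 and cannot be set against the hg19 positions of the summits. The GPR15 window is chr3:98531728-98532027 on the plus strand and the CPOX window is chr3:98593562-98593861 on the minus strand, each written 5′ to 3′. Capitals mark matches to 4 motif cores, searched on both strands. The core of the TATA box was searched as TATAAA. For the GC box the letters were CCGCCC. The CCAAT box was searched by the letters of its name. For a binding site of GATA factors the letters were TTATCT.
GPR15: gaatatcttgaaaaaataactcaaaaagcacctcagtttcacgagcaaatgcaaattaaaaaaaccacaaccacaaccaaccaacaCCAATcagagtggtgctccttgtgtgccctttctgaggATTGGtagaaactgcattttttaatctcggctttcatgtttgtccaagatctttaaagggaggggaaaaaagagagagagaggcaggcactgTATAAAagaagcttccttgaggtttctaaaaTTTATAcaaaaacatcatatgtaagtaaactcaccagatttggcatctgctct
CPOX: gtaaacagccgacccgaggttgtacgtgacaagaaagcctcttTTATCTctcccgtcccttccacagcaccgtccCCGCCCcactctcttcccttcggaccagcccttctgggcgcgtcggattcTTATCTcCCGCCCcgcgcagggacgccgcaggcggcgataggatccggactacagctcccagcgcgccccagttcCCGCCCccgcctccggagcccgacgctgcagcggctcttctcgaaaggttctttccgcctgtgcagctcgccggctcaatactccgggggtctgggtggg
The GPR15 window had a GC content of 38% and 2 CpG dinucleotides, fewer CpGs than most of the 35116 promoters of this length, whose median was 14. It held the TATA core beginning 34 bases before the start, the same core on the opposite strand beginning 3 bases before it, and 1 CCAAT box on each strand. The CPOX window had a GC content of 66% and 31 CpGs, more than 79.3% of promoters. It held the GC box core at 3 places and the GATA site core at 2, of which 1 ended 1 base before a GC box core. No matches overlapped, and the window held no match to the other cores. Over all promoters 11.5% held the TATA core, 45.0% the GC box core, 34.6% the CCAAT box and 10.3% the GATA site core, on either strand. The motifs were chosen after the sequences were seen, and a match is a description of letters, not of binding.

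H3K27ac summits filled one compact stretch and left the rest of the region empty. After ENO1-IT1 siRNA they ran from 98230635 to 98312254, a span of 81.6 kb. After control siRNA they ran from 98231843 to 98314016, a span of 82.2 kb. The H3K27ac summits nearest to the region on either side lay at 97758475 and 98451225 after ENO1-IT1 siRNA, and at 97691167 and 98451421 after control siRNA. The cluster was thus preceded by 472 kb without an H3K27ac summit after ENO1-IT1 siRNA and by 541 kb after control siRNA, and followed by 139 and 137 kb without one. Neighbouring summits within it were a median of 1657 bp apart after ENO1-IT1 siRNA and 1138 bp apart after control siRNA.

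**Figure D1:**
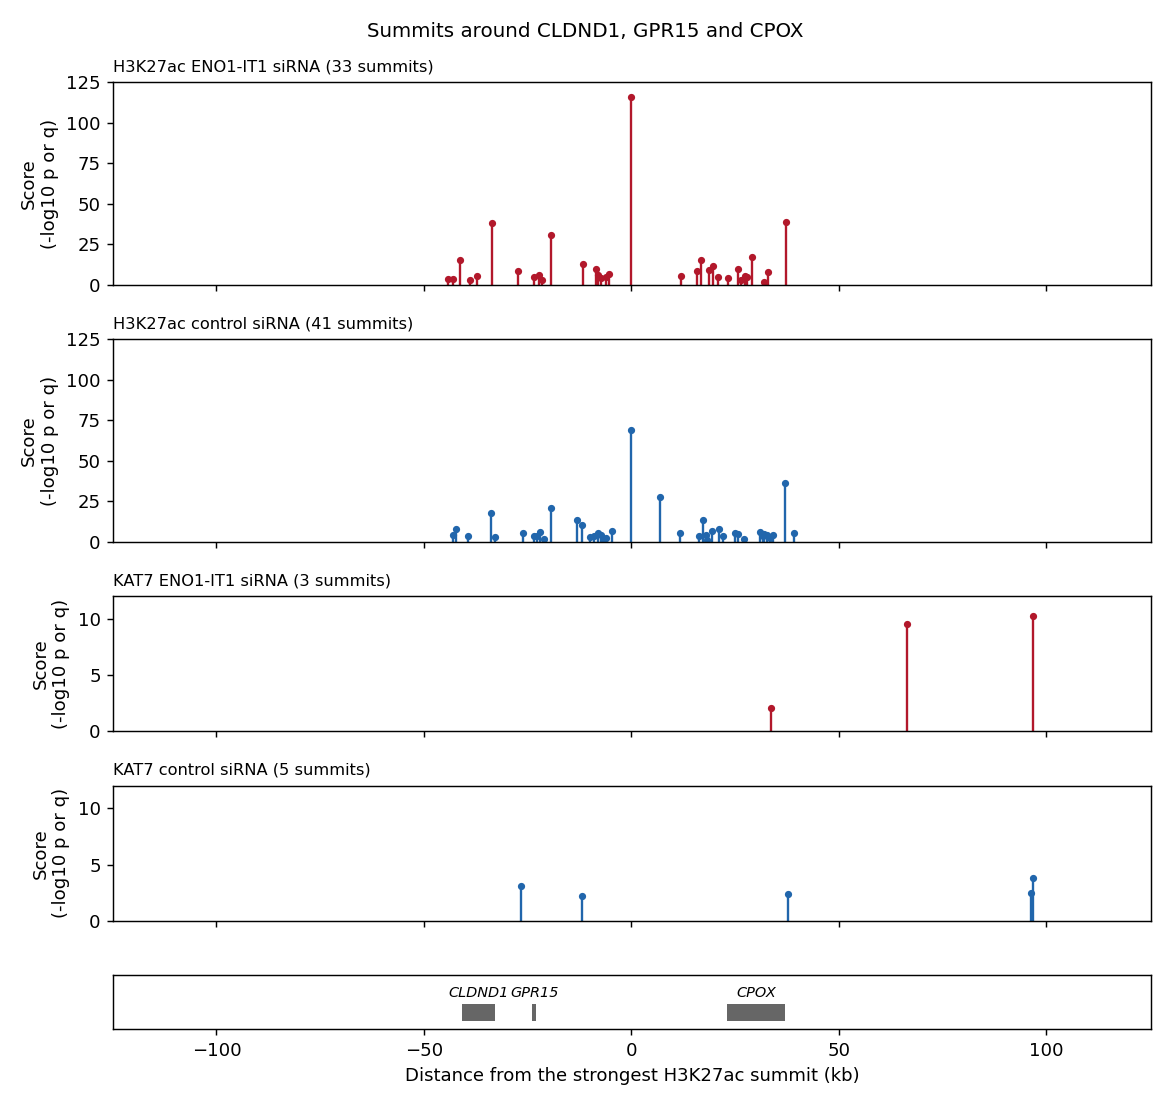
Summits of the 4 immunoprecipitated lists as vertical lines, placed by their distance in kb from the strongest H3K27ac summit of the ENO1-IT1 siRNA list, with the score of each (-log10 p or q) as height. Grey bars are the approximate gene positions, GPR15 being drawn at a fixed width of 1 kb. H3K27ac summits stand close together from CLDND1 to CPOX in both conditions and tower at the same place, while the strongest KAT7 summits lie to the right of the genes.

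The strongest acetylated site of the region lay between GPR15 and CPOX, at the same place in both conditions. The summit was at 98274863 with a score of 115.9 after ENO1-IT1 siRNA, against 98274852 with a score of 69.4 after control siRNA, positions 11 bp apart. The score is the -log10 of a p or q value that the authors' peak caller gave, and it grows with sequencing depth, so the lists' scores have no common scale. They were used to rank summits within a list and, where said, as a minimum, and counts past a minimum in different lists stand side by side as descriptions. This summit ranked 88 of 31839 after ENO1-IT1 siRNA and 167 of 29429 after control siRNA. It lay about 23.9 kb beyond the approximate position of GPR15 and about 37.1 kb from the high end of CPOX, where CPOX starts on the minus strand. No KAT7 summit lay within 10 kb of it in either condition, the nearest being 33715 bp away after ENO1-IT1 siRNA and 11803 bp away after control siRNA.

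Other H3K27ac summits of the top 5 lay near CLDND1 and CPOX. The first summit at the low end of the cluster was weak, with a score of 3.52 at 98230635 after ENO1-IT1 siRNA and 4.13 at 98231843 after control siRNA. Near CPOX the summit was at 98312254 with a score of 38.6 after ENO1-IT1 siRNA, against 98311965 with a score of 36.2 after control siRNA. These had rank 2 in the region in both lists. They lay 289 bp apart on either side of 98.312 Mb, the approximate high end of CPOX, and so fell into different segments in the count below. Near CLDND1 the summit was at 98241301 with a score of 38.1 after ENO1-IT1 siRNA, against 98241024 with a score of 18.0 after control siRNA, 277 bp apart. It had rank 3 in the region after ENO1-IT1 siRNA and rank 5 after control siRNA. General knowledge of the map has CLDND1 transcribed in the same direction as CPOX, which would place its start near this summit, but this was not checked against an hg19 annotation.

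H3K27ac at the position of GPR15 itself was listed in both conditions and was weak in both. The summit was at 98251332 with a score of 4.93 after ENO1-IT1 siRNA, against 98251437 with a score of 3.85 after control siRNA. They ranked 24 of 33 and 29 of 41 in the region. A stronger site lay further on, at 98255485 with a score of 31.1 after ENO1-IT1 siRNA and at 98255478 with a score of 20.7 after control siRNA. These positions were 7 bp apart, the closest pair of H3K27ac summits across the siRNAs in the region. The top 5 of the region were completed by 98304026, within CPOX, with a score of 17.5 after ENO1-IT1 siRNA, and by 98281875 with a score of 27.7 after control siRNA. Each of these had no counterpart within 500 bp after the other siRNA.

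By segment, most acetylated sites lay between GPR15 and CPOX and within CPOX. From GPR15 to CPOX, 47.0 kb, there were 17 H3K27ac summits after ENO1-IT1 siRNA and 24 after control siRNA. Within CPOX there were 8 and 10, in the same order of siRNAs, and within CLDND1 there were 3 and 2. The 84.0 kb before CLDND1 held 3 after ENO1-IT1 siRNA and 2 after control siRNA, all close to the gene. Between CLDND1 and GPR15 there was 1 after ENO1-IT1 siRNA and 2 after control siRNA, and beyond CPOX 1 in each list. The lower total after ENO1-IT1 siRNA therefore came mainly from the stretch between GPR15 and CPOX, where the difference was 17 against 24.

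**Figure D2:**
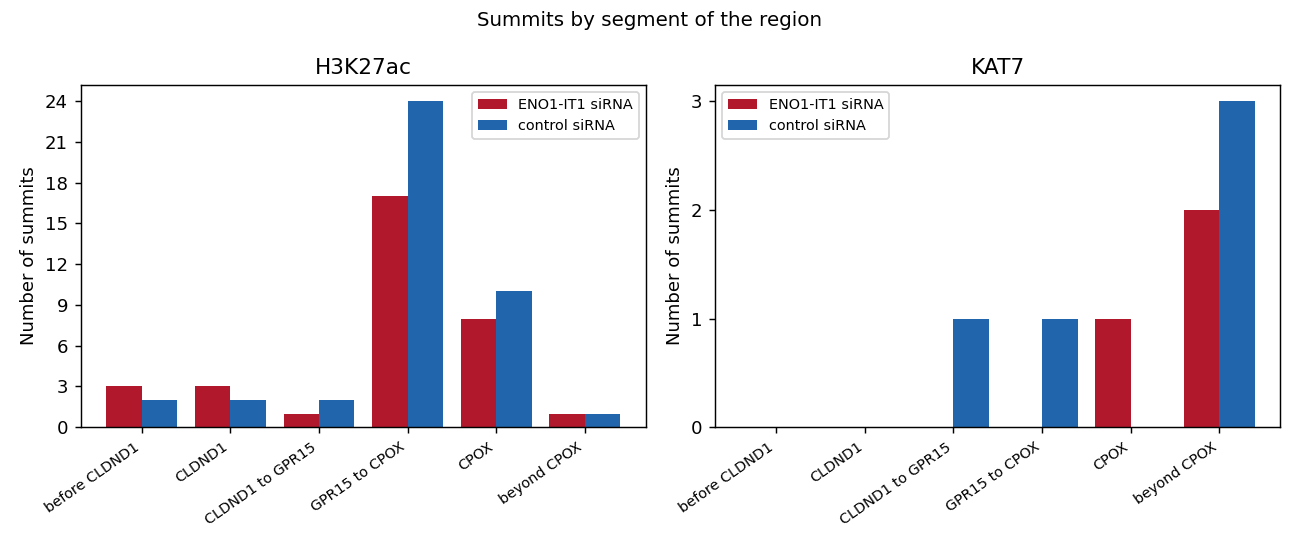
Number of summits in each segment of the region for H3K27ac (left) and KAT7 (right), with 1 library per bar. Segments are set by the approximate gene positions. H3K27ac reached 17 summits after ENO1-IT1 siRNA and 24 after control siRNA between GPR15 and CPOX, and KAT7 never exceeded 3 in a segment.

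The region held fewer H3K27ac summits after ENO1-IT1 siRNA than after control siRNA, while the whole list was the longer one. The region's ratio was 0.805, against 1.08 for the whole lists. Of the 74 H3K27ac summits of both lists in the region, 44.6% came from ENO1-IT1 siRNA (exact Clopper-Pearson 95% interval 33.0 to 56.6%), against 52.0% over the whole lists, which lies within that interval. Intervals here cover counting error only, and neighbouring summits are not independent. The order was the opposite among summits scoring at least 10, with 10 after ENO1-IT1 siRNA and 8 after control siRNA, and there were 4 of each at a score of at least 20. The whole lists had a ratio of 1.39 at a score of at least 10, so that the region's ratio of 1.25 was below theirs there too. That ratio of 1.25 rests on few summits, and its difference from 1.39 was not tested. A fixed minimum does not mean the same in lists without a common scale. Over the whole lists 40.1% of summits after ENO1-IT1 siRNA and 31.2% after control siRNA scored at least 10. In the region these shares were 30.3% and 19.5%, and the median scores were 6.41 after ENO1-IT1 siRNA and 5.02 after control siRNA, against 8.02 and 7.14 over the whole lists. In the 27 other windows of 250 kb with at least 30 H3K27ac summits in both lists, the median score of a window ran from 4.18 to 11.7 after ENO1-IT1 siRNA, 12 of them below the region, and from 3.96 to 8.96 after control siRNA, 4 of them below it.

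Most acetylated positions had an H3K27ac summit within 500 bp after the other siRNA. Summits are called shared here if a summit of the same mark lay within 500 bp after the other siRNA. Neighbouring H3K27ac summits of the region were a median of 1657 bp apart after ENO1-IT1 siRNA and 1138 bp apart after control siRNA. In a cluster this dense a shared summit need not be a match. After ENO1-IT1 siRNA 24 of 33 summits were shared, 72.7% (54.5 to 86.7%), against 64.3% of the whole list. After control siRNA 26 of 41 were shared, 63.4% (46.9 to 77.9%), against 71.9% of the whole list. At this distance both whole-list shares lay within the intervals of the region. At 100 and 250 bp the control whole-list shares of 35.8 and 56.1% lay above the region's intervals (7.15 to 32.1% and 22.1 to 53.1%), and at 2000 bp the ENO1-IT1 siRNA whole-list share of 81.1% lay below the interval of 84.2 to 99.9%. Since shares depend on score, the whole lists were also read at the scores of the region's summits, in 10 classes, which gave 61.0% after ENO1-IT1 siRNA and 67.8% after control siRNA. Between GPR15 and CPOX, 16 of 17 summits after ENO1-IT1 siRNA and 17 of 24 after control siRNA were shared, and within CPOX 4 of 8 and 6 of 10 were. These numbers are small, and the shared pair at the high end of CPOX was split between segments. The segments were not tested against each other.

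**Figure D3:**
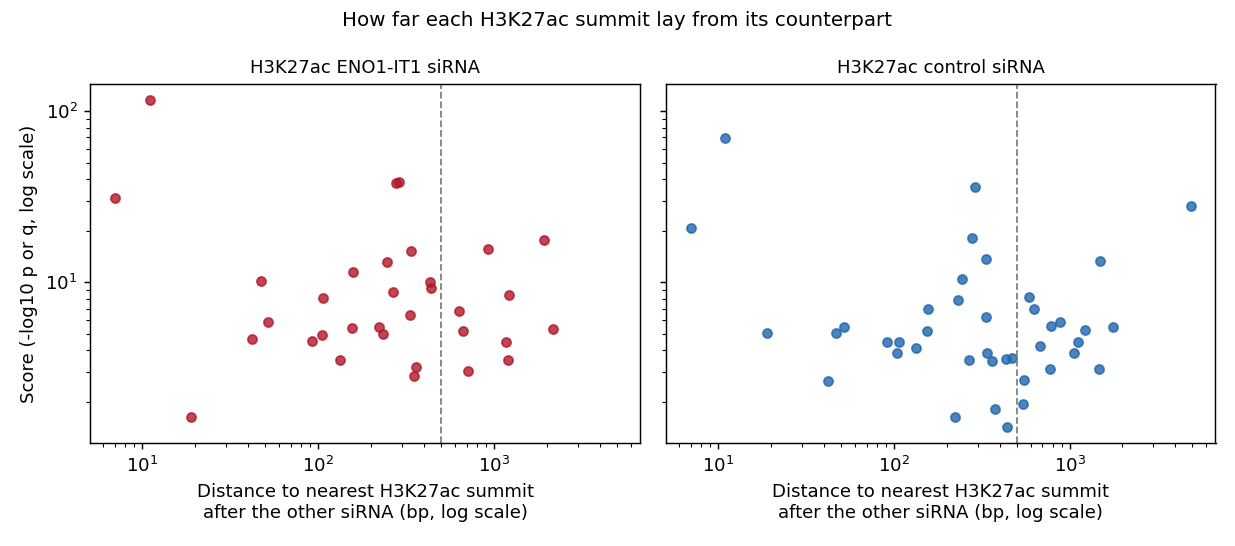
Each H3K27ac summit of the region by its distance in bp from the nearest H3K27ac summit after the other siRNA (log scale) and its score (-log10 p or q, log scale), after ENO1-IT1 siRNA (left) and control siRNA (right). The dashed line is at 500 bp. One control summit, with a score of 27.7, stands apart at 4875 bp.

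Most positions that were not shared had a summit of the other list within 2 kb. Neighbouring summits were a median of 1657 bp apart after ENO1-IT1 siRNA and 1138 bp apart after control siRNA. A summit within 2000 bp therefore cannot tell a match from density, and other dense windows were not read at that distance. After ENO1-IT1 siRNA, 9 summits were unshared, of which 8 had a control summit within 2000 bp and 1, at 98237713 with a score of 5.33, lay 2163 bp away. After control siRNA, 15 were unshared, of which 14 had an ENO1-IT1 siRNA summit within 2000 bp. The exception was the summit at 98281875, between the strongest site and CPOX. It had rank 3 in the region and rank 1326 of 29429 in its list, and the nearest summit after ENO1-IT1 siRNA was 4875 bp away at 98286750 with a score of 5.40. No KAT7 summit lay within 10 kb of it in either list. It was the one summit of the region scoring at least 20 that was unshared. Of the 2961 control H3K27ac summits scoring at least 20 in the genome, 19.9% were unshared and 99, or 3.34%, lay over 2000 bp from any summit after ENO1-IT1 siRNA. Of these 99, 54 scored at least as high as the summit at 98281875, which is itself counted. The other unshared summits scoring at least 10 were at 98304026 (score 17.5) and 98233488 (score 15.6) after ENO1-IT1 siRNA and at 98261801 (score 13.3) after control siRNA. The nearest summits after the other siRNA were 1932, 923 and 1492 bp away and need not be matches. The one nearest to 98304026 lay 223 bp from another ENO1-IT1 siRNA summit. The one nearest to 98261801 lay 245 bp from another control summit.

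That single summit also decided whether the cluster read as continuous. When neighbouring summits at most 10 kb apart were joined, the control list gave 1 cluster of 41 summits over 82.2 kb, with rank 2 by number of summits among its 15496 clusters, a rank that restates the density by which the region was chosen. The ENO1-IT1 siRNA list gave 2 clusters, one of 18 summits over 44.2 kb that ended at the strongest site and one of 15 summits over 25.5 kb that began at 98286750. They had ranks 16 and 40 of 17974. They were separated by 11887 bp without a summit, the stretch in which the control list had 98281875. At 20 kb each list gave 1 cluster, of 33 summits after ENO1-IT1 siRNA and 41 after control siRNA, and at 5 kb each gave 5.

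KAT7 gave 8 summits in the region, none of them among the strongest of their lists. After ENO1-IT1 siRNA the summits were at 98308578 (score 2.06), 98341380 (score 9.53) and 98371703 (score 10.3), of which the last 2 lay above the list's median of 7.67. After control siRNA they were at 98248296 (score 3.08), 98263049 (score 2.25), 98312644 (score 2.40), 98371103 (score 2.50) and 98371712 (score 3.80), of which those scoring 3.08 and 3.80 lay above the list's median of 2.68. The highest had rank 9033 of 24611 after ENO1-IT1 siRNA and rank 32121 of 122439 after control siRNA. At a score of at least 10 there was 1 summit after ENO1-IT1 siRNA and 0 after control siRNA, against 37.4% and 2.75% of the whole lists. Of the 8 KAT7 summits of both lists, 37.5% came from ENO1-IT1 siRNA (8.52 to 75.5%), an interval that holds the 16.7% of the whole lists. The nearest KAT7 summits outside the limits were at 97708056 and 98697804 after ENO1-IT1 siRNA, and at 98135551 and 98427238 after control siRNA.

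KAT7 was listed at one place in both conditions, and that place had no H3K27ac. The summit was at 98371703 with a score of 10.3 after ENO1-IT1 siRNA, against 98371712 with a score of 3.80 after control siRNA, 9 bp apart. The nearest H3K27ac summit was 59449 bp away after ENO1-IT1 siRNA and 57696 bp away after control siRNA. A further control KAT7 summit, at 98371103, lay 600 bp from the ENO1-IT1 siRNA one. Of the KAT7 summits, 1 of 3 after ENO1-IT1 siRNA and 1 of 5 after control siRNA were thus shared, against 32.2% and 6.62% of the whole lists, numbers too small to set the region apart. Such sites were common, since 52.6% of the 7925 ENO1-IT1 siRNA KAT7 summits with a control KAT7 summit had no H3K27ac within 500 bp in either condition and 30.3% had none within 50 kb.

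Within the region KAT7 touched H3K27ac of the same condition at 1 position by the 500 bp distance. After ENO1-IT1 siRNA 0 of 3 KAT7 summits of the region had such an H3K27ac summit (0 to 70.8%), against 19.0% of the whole list. After control siRNA 1 of 5 had one (0.505 to 71.6%), against 3.67% of the whole list. Of these KAT7 summits, those at 98341380 and 98371703 after ENO1-IT1 siRNA and at 98371103 and 98371712 after control siRNA lay beyond the acetylated cluster. The 1 control KAT7 summit with H3K27ac within 500 bp was at 98263049, with a score of 2.25. It lay 1 bp from the H3K27ac summit at 98263048 (score 10.4), between GPR15 and the strongest site. This KAT7 summit ranked 95538 of 122439 in its list. Others lay just beyond the distance. The control KAT7 summit at 98312644, by the start of CPOX, was 679 bp from control H3K27ac and 390 bp from ENO1-IT1 siRNA H3K27ac. The control KAT7 summit at 98248296 was 525 bp from control H3K27ac. The ENO1-IT1 siRNA KAT7 summit at 98308578, within CPOX, was 791 bp from H3K27ac in its own condition and 240 bp from control H3K27ac.

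From the side of H3K27ac, KAT7 lay beside 1 of the 74 summits of both lists. After ENO1-IT1 siRNA 0 of 33 H3K27ac summits had a KAT7 summit within 500 bp (0 to 10.6%), against 14.3% of the whole list and 14.1% of it at like scores. After control siRNA 1 of 41 had one, 2.44% (0.0617 to 12.9%), against 14.8% and 13.1%. At 500 bp the whole-list shares lay above both intervals, and the difference was not tested. At 100 bp, where the region's shares were 0 and 2.44% with the same intervals, the whole-list shares of 9.60% after ENO1-IT1 siRNA and 8.70% after control siRNA lay within them. At 2000 bp the region's shares were 6.06% (0.743 to 20.2%) and 14.6% (5.57 to 29.2%), and the whole-list shares of 18.4% and 26.0% again lay within the intervals. Between these distances, at 250 and 1000 bp, the control whole-list share lay within the interval and the ENO1-IT1 siRNA one above it. Other dense windows also had low shares. In the 27 other windows of 250 kb with at least 30 H3K27ac summits in both lists, KAT7 lay within 500 bp of 5.29% of the 1040 H3K27ac summits after ENO1-IT1 siRNA and of 6.71% of the 1028 after control siRNA, and these shares fell within the intervals of the region.

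Among windows of its own length the region stood high for H3K27ac, as its choice required, and low for control KAT7. Of 11440 windows of 250 kb that held any summit, 20 had more H3K27ac summits after ENO1-IT1 siRNA and 9 had more after control siRNA, and the median window held 1 in each list. For KAT7 the median window held 2 summits after ENO1-IT1 siRNA and 10 after control siRNA, against 3 and 5 in the region. More KAT7 summits than in the region were listed in 2054 windows after ENO1-IT1 siRNA and in 10314 after control siRNA. In the 27 other dense windows KAT7 summits numbered 0 to 18 (median 4) after ENO1-IT1 siRNA and 5 to 20 (median 10) after control siRNA. After control siRNA no other dense window had fewer than the region, and 4 had the same number. The highest H3K27ac score of the region was exceeded in 2 of the 27 windows after ENO1-IT1 siRNA and in 4 after control siRNA. Shared H3K27ac in those windows came to 58.3% after ENO1-IT1 siRNA and 60.2% after control siRNA, both within the intervals of the region.

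**Figure D4:**
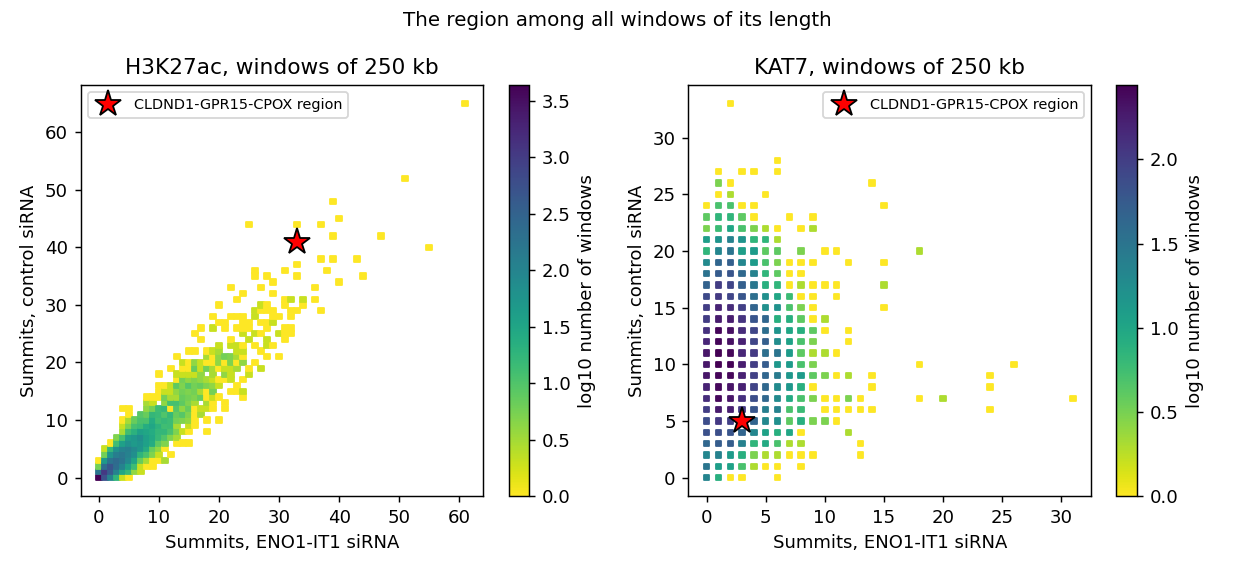
Number of H3K27ac (left) and KAT7 (right) summits per window of 250 kb after ENO1-IT1 siRNA (horizontal) and control siRNA (vertical), coloured by the log10 number of windows. The star marks the region, at 33 and 41 H3K27ac summits, against maxima of 61 and 65 over all windows. For KAT7 the star is at 3 and 5 summits, low on the vertical axis.

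Input DNA gave no summit near the region. The closest input summits on chromosome 3 were at 90494782 and 196625709, and the nearer of these lay 7655 kb before the lower limit. This allows no statement on background below the level at which input was called, and the sources used here do not give the control of the peak calling.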

How the data were processed

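The authors aligned reads to hg19 with Bowtie and used MACS2 to call peaks, per the submitters' processing notes. Tool versions, calling options and the calling control were not given in the sources used here. Each list belongs to 1 sample and gives 1 summit of 1 bp per peak. The deposited score is a -log10 of p or of q in the manner of MACS2, and nothing states which. Peak names carry a duplicate-removal tag. Read counts are not part of the lists, so depth is unknown. Sample titles gave the groups. The code letters of the peak names are alike in both conditions and give no check of the titles. If the titles were exchanged, all directions would turn.

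Summits of chromosome 3 from 98150000 to 98400000 were taken from each list and compared in Python 3.11.15 (SciPy 1.17.1, pandas 2.3.3, numpy 2.4.6). Figures were made in matplotlib 3.10.9. Shares carry exact Clopper-Pearson 95% intervals. Windows of 250 kb on chromosomes 1 to 22 and X were laid so that the region was one of them. Named summits were the 5 highest-scored of the region in each list, KAT7 summits within 500 bp of H3K27ac, unshared summits scoring at least 20 and those nearest the limits. KAT7 summits outside this rule and unshared summits scoring 10 to 20 were named after their values were seen. The region, its genes and the lists of results were chosen with earlier results of these data known. The reading at like scores, the dense windows and the motifs were added after seeing the data. The alternatives tried were other distances (100, 250, 1000 and 2000 bp), minimum scores of 10 and 20, limits moved by 50 kb, merged summits, shifted windows and other distances for joining. The overlap code was tested on simulated data.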

Additional observations from a re-analysis of the deposited data

How the results depend on the processing

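Of 75 alternatives to 18 results, 52 left a share within the interval of the reported one or a count, rank or ratio within 1.5 times of it, 22 moved the value further and 1 reversed it. For KAT7 these intervals are wide. Control KAT7 summits with H3K27ac made up 60% at 1000 and 2000 bp, 3 of 5 (14.7 to 94.7%), against 20% at 500 bp. The whole-list shares of 4.50 and 5.70% lay below that interval, and the difference was not tested. The region was chosen for its many H3K27ac summits, a median of 1138 bp apart after control siRNA. At these distances the share therefore cannot tell a match from density, and other dense windows were not read there. The ENO1-IT1 siRNA share of KAT7 summits with H3K27ac at these distances was 33.3%, 1 of 3, against 0% at 500 bp (whole list 21.0 and 22.7%). The share of shared control KAT7 summits was 40%, 2 of 5, against 20% at 500 bp (whole list 7.42 and 8.85%). The reversal was the ratio of H3K27ac summits, ENO1-IT1 siRNA over control siRNA, which was 1.25 at a score of at least 10, against 0.805 over all scores. The whole-list ratio was 1.39 at that minimum and 1.08 over all scores, so the region's ratio was the lower one in both. At that minimum the region's ratio rests on few summits, and its difference from the whole lists was not tested. At that minimum the H3K27ac summits numbered 10 after ENO1-IT1 siRNA and 8 after control siRNA, and the KAT7 summits 1 and 0. At a score of at least 20 these numbers were 4, 4, 0 and 0, and the KAT7 ratio has no value at either minimum. By number of H3K27ac summits scoring at least 10, the region ranked 87 after ENO1-IT1 siRNA and 108 after control siRNA, against 21 and 10 over all scores. The share of shared H3K27ac summits followed the distance, at 21.2, 45.5 and 97.0% within 100, 250 and 2000 bp after ENO1-IT1 siRNA (whole list 33.0, 51.7 and 81.1%), and at 17.1, 36.6, 82.9 and 97.6% within 100, 250, 1000 and 2000 bp after control siRNA (whole list 35.8, 56.1, 87.3 and 93.5%). The share of control H3K27ac summits with KAT7 was 14.6% within 2000 bp, against 26.0% of the whole list, and 7.32% within 1000 bp. The lone ENO1-IT1 siRNA KAT7 summit scoring at least 10 was shared, so the share there was 100% of 1. With 50 kb removed at each end, 3 control KAT7 summits were left. The longest joined H3K27ac cluster held 33 summits after ENO1-IT1 siRNA at 20 kb, and 20 after control siRNA at 5 kb. The alternatives changed the minimum score, the limits or the distances, and why each value moved was not tested.

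No paired analysis was possible because each group held 1 library. There was no replicate to leave out. Scores depend on an unknown depth, so no difference in list length or score can be read as a difference in acetylation or occupancy. The region's KAT7 results rest on 8 summits. Gene positions are approximate, and the segment of a summit within 1 kb of a gene's limit is uncertain.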

Other observations

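The windows of 250 kb whose summit numbers came closest to those of the CLDND1, GPR15 and CPOX region over the 4 immunoprecipitated lists were found by the summed difference in number of summits. The closest, with a summed difference of 6, lay on the same chromosome 3 from 50150001 to 50400000. It held 33 H3K27ac summits after ENO1-IT1 siRNA and 35 after control siRNA, and 3 and 5 KAT7 summits, the same KAT7 numbers as the region. The next lay on chromosome X from 114900001 to 115150000, with 33 and 44 H3K27ac and 5 and 8 KAT7 summits in the same order of siRNAs. The third lay on chromosome 7 from 130400001 to 130650000, with 37 and 44 H3K27ac and 3 and 7 KAT7 summits. No hg19 annotation was used, so the genes of these windows are not named.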
